A study of Mus musculus with 8 samples.

Results

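The genome far from genes was described here by 7214 tiles. A tile is a fixed window of 1000 bp, and a tile was included when it held at least 3 measured cytosines that each lay more than 10 kb from every GENCODE M21 gene of any type and had at least 10 reads in all 8 libraries. Of 554189 autosomal cytosines that met the read minimum and were kept, 53143 (9.59%) lay this far from a gene. The 7214 tiles held 33673 of them, with a median of 4 per tile and a highest number of 57. A further 13616 intergenic tiles held 1 or 2 such cytosines and were left out. All autosomal tiles formed by the same minimum numbered 52130, so the intergenic tiles were 13.8% of them, beside 15092 promoter tiles, 24530 gene body tiles and 5294 other tiles within 10 kb of a gene. Of the 555155 cytosines with enough reads, 966 had above 200 reads in every library, 103 of them intergenic. These were left out before the counts above.

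The tumors came from NIC-5231, a mouse mammary tumor cell line derived from ErbB2-driven tumors and injected into the mammary fat pad of immunodeficient NSG mice aged 5 to 7 weeks. Groups of 5 mice received intraperitoneal injections every 2 days of vehicle (saline with 30% PEG and 5% DMSO), of C29 at 10 mg/kg, of 5-azadC at 1 mg/kg, or of C29 at 10 mg/kg with 5-azadC at 1 mg/kg, each in that vehicle. C29 inhibits the nuclear receptor ERRα. The other drug, 5-azadC or decitabine, is built into DNA in place of cytidine and traps DNA methyltransferases. Reduced representation bisulfite sequencing (RRBS), which reads fragments next to the CCGG sites of a restriction digest, was performed on 2 libraries per group, and the tumor DNA of 2 mice was pooled for each. All tumors carried 1 cell line, and tumor and host are both mouse, so methylation of tumor cells and of host cells in the tumor cannot be told apart. With 2 libraries per group, the spread between libraries is a spread between pools and not between single mice.

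In mammals methylation sits mostly on the cytosine of CpG pairs, is copied to the new DNA strand by DNMT1 after replication, and is diluted by cell division when that copying fails. Most DNA between genes is CpG-poor and heavily methylated, and a large part of it derives from retrotransposons, which methylation helps to keep silent. CpG islands, the dense unmethylated stretches best known from promoters, are rare there.

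The sequences of 10 tiles are shown because they carry the patterns described further on. All are from the plus strand of GRCm38, written 5′ to 3′, and capitals mark the CpG pairs that were measured on either strand and lay inside the stretch shown. Tiles are named by their nearest gene, which only places them. The first 4 had the largest falls with 5-azadC among tiles that had at least 100 reads in every library and whose libraries with and without the drug did not overlap, and lay at chr2:172732538-172732702 (Gm22773), chr14:58598233-58598374 (Gm25614), chr19:47476244-47476339 (Sh3pxd2a) and chr8:116843226-116843349 (Cmc2). They held few measured CpGs, spread between stretches in which none was measured.
Gm22773: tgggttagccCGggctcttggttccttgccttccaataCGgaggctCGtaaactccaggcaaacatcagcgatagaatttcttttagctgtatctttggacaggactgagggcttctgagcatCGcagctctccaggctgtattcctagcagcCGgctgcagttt
Gm25614: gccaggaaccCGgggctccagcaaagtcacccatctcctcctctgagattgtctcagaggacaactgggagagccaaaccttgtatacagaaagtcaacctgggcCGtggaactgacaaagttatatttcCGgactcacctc
Sh3pxd2a: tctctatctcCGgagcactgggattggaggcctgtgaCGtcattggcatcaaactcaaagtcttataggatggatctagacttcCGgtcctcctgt
Cmc2: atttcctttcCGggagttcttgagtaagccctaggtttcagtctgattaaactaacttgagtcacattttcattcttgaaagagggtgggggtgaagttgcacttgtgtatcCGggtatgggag

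The next pair, at chr5:101525558-101525629 (Gm43103) and chr11:84578359-84578470 (Lhx1os), had the largest rises with 5-azadC among tiles that met the same read minimum and did not overlap.
Gm43103: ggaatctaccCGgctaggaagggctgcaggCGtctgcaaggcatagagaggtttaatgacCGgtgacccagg
Lhx1os: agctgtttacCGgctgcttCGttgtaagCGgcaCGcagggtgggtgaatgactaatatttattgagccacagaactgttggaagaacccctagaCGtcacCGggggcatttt

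The 2 unmethylated tiles with most measured cytosines lay at chr4:8647113-8647362 (Gm11809) and chr11:119053290-119053539 (Cbx8), and their stretches were dense in CpG.
Gm11809: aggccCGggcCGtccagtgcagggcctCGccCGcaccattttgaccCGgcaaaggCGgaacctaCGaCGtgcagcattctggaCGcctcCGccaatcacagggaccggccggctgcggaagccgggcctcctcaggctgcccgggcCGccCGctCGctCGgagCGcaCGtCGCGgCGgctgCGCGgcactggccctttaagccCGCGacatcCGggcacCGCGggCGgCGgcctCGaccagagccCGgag
Cbx8: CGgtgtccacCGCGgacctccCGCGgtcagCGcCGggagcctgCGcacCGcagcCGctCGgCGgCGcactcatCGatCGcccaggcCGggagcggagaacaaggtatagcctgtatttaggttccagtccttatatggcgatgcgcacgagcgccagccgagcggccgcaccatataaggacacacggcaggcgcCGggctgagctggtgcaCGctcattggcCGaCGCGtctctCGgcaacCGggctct

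The 2 methylated tiles with most measured cytosines, at chr10:68411396-68411581 (Cabcoco1) and chr3:23687755-23687859 (Naaladl2), lay almost wholly in repeats, since 97.5% and 98.7% of their bases are soft-masked in the genome. The Rbms3 tile had 18 measured cytosines, as many as the Naaladl2 tile, and came after it only by chromosome order. It was 2.8% soft-masked, and the next methylated tile, near Gm43160, was 48.4%.
Cabcoco1: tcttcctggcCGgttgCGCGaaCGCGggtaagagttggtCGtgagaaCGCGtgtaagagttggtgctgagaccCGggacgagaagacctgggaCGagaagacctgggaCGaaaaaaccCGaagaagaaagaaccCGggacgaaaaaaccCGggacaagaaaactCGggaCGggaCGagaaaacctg
Naaladl2: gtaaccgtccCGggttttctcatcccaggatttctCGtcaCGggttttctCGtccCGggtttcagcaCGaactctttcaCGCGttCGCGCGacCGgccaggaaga
The Cabcoco1 and Naaladl2 tiles shared a run of 28 identical bases in opposite orientation, and that run was found, on either strand, in 46 of the 7214 intergenic tiles (0.638%) and in 0.0957% of the other tiles. The Gm43160 tile shared a run of 37 bases with the Naaladl2 tile, and 57 intergenic tiles (0.790%) carried it, against 0.0779% of the other tiles. Tiles over 80% soft-masked made up 14.8% of the intergenic tiles and 1.75% of the other tiles. The part of repeat content in the shares of these runs was not tested.

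Intergenic tiles differed from the rest in makeup. Their median GC share was 47.1% against 51.2% over all tiles, their median number of CpGs was 17 against 23, and their median ratio of observed to expected CpGs was 0.305 against 0.383. A median of 23.4% of their bases was soft-masked as repeat, against 12.1% over all tiles. Island-like sequence, with a GC share of at least 50% and an observed over expected ratio of at least 0.6 over the 1000 bp, made up 126 intergenic tiles (1.75%), against 23.1% of all tiles and 54.9% of promoter tiles. The median distance to the nearest gene was 27050 bp and the largest was 612367 bp. That gene was protein-coding for 32.2% of the tiles, a processed pseudogene for 23.5% and a lincRNA for 22.2%. CCGG was present in 99.97% of intergenic tiles and 99.96% of all tiles, since RRBS starts there.

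Coverage of the intergenic tiles was similar across groups and lowest with the combination. The libraries held 51305736 to 81174026 reads over cytosines, with medians of 21 to 30 reads per cytosine, and unmethylated and methylated spike-in DNA read 0.216% to 0.329% and 97.5% to 98.3% methylated. An intergenic tile had a median of 164.5 to 263 reads in a library, with both libraries of the combination below the 6 others. Read counts of tiles and of libraries are sums over cytosines, so a read that covers several cytosines is counted at each. The logistic test used below, the limits given for values of 0% and the spread expected from counting cover counting error only. They take each such count as separate, and they understate that error where counts share a read or a molecule. PCR copies were not marked.

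Intergenic tiles lost methylation with 5-azadC, and with C29 alone the mean of their tile values stood where it was with vehicle. The mean over the 7214 tiles stood at 66.6% and 66.0% in the vehicle libraries, beside 66.7% and 65.9% in the C29 libraries. It was 59.1% and 59.2% in the 5-azadC libraries, and 60.5% and 61.1% with the combination. All 4 libraries with 5-azadC lay below all 4 without it, while the vehicle and C29 libraries overlapped. As group means the values were 66.3% ± 0.415 (SD, n = 2) for vehicle and 66.3% ± 0.512 (n = 2) for C29 alone, but 59.1% ± 0.0669 (n = 2) for 5-azadC alone and 60.8% ± 0.431 (n = 2) for both drugs together. The 3 treatments were compared with the same 2 vehicle libraries, and against them C29 differed by 0.00422 percentage points, 5-azadC by -7.16 and the combination by -5.49. The difference for C29 was smaller than the SD of either group. Over all tiles C29 differed from vehicle by -0.707 points, and over the tiles outside the intergenic set by -0.821. With reads summed over the intergenic tiles, C29 lay below vehicle by the margin given in the last section. The combination lay 1.67 points above 5-azadC alone, with no overlap of the 2 libraries of each, and over all tiles the same gap was 1.19 points.

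**Figure D1:**
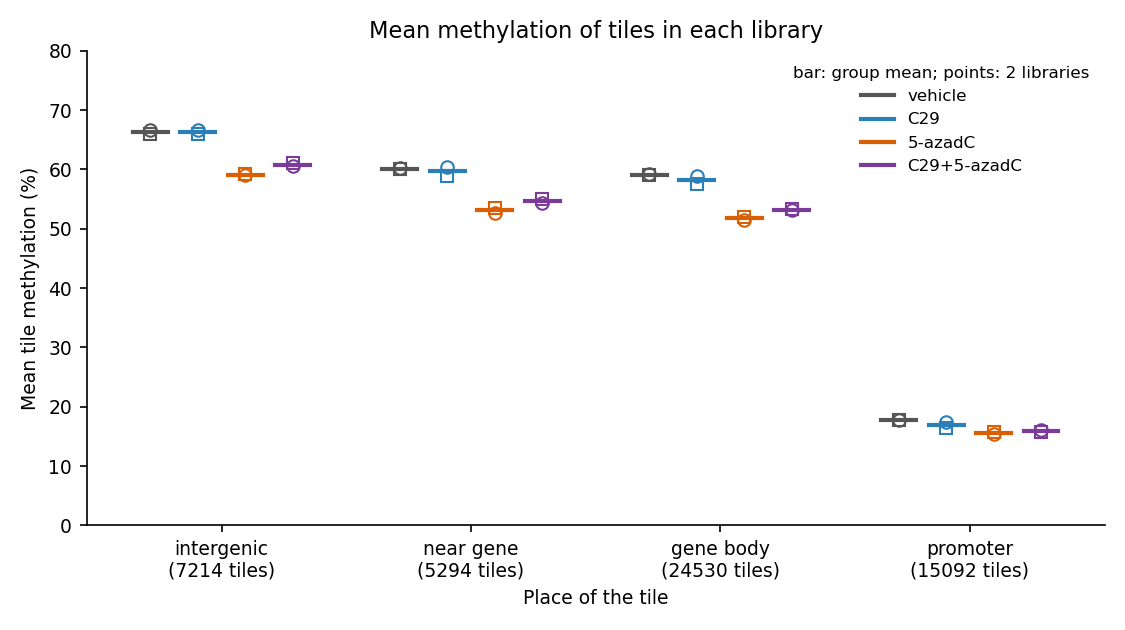
Mean methylation of tiles (%, vertical axis) in each of the 8 libraries, by place of the tile (horizontal axis). Circles are replicate 1, squares replicate 2, and bars the mean of each group. In intergenic tiles the 4 libraries with 5-azadC sit between 59.1% and 61.1%, below the 4 others at 65.9% to 66.7%, and promoter tiles lie lowest in all groups.

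Pooled over C29, the 4 libraries with 5-azadC had a mean of 59.96% ± 0.996 (SD, n = 4) against 66.3% ± 0.381 (n = 4), a difference of -6.33 points. Over all tiles the difference was -4.87 points, over promoter tiles -1.60, over gene body tiles -6.22 and over the other tiles near genes -6.01. Relative to the level without the drug, the intergenic loss was -9.54%, near the -10.2% of all tiles and the -9.22% of promoter tiles, which started at a mean of 17.3% compared with 66.3%. The loss was therefore larger in points in intergenic tiles than over all tiles, and similar as a share of the starting level. No p-value is attached to a mean over these tiles. The 4 libraries with C29 had a mean of 63.5% ± 3.19 against 62.7% ± 4.14 without it, a difference of 0.837 points, and the libraries overlapped.

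The loss was seen on every autosome. On all 19 the 4 libraries with 5-azadC lay below the 4 others, with differences from -5.26 points (chromosome 7) to -7.29 points (chromosome 9), over 180 to 601 intergenic tiles per chromosome. For C29, the differences ran from 0.0960 to 1.41 points, and the libraries overlapped on each chromosome.

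The fall came with a thinning of the most methylated tiles. Tiles above 80% made up 42.8% and 41.6% of intergenic tiles with vehicle, and 42.3% and 41.1% with C29. They made up 28.6% and 27.8% with 5-azadC, and 31.1% and 31.9% with the combination. Tiles at 90% or more, which are part of these, made up 26.4% and 25.9% with vehicle, 26.2% and 25.4% with C29, 13.6% and 12.4% with 5-azadC, and 16.6% and 17.6% with the combination. Tiles between 20% and 80% rose in the same libraries, from 46.7% and 47.4% with vehicle to 58.6% and 59.8% with 5-azadC and to 56.0% and 55.8% with the combination. Tiles under 20% were between 10.5% and 11.02% of the total in the libraries without 5-azadC and between 12.2% and 12.8% in those with it. So 5-azadC moved tiles mostly out of the top of the range and into its middle, with few reaching the bottom.

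**Figure D2:**
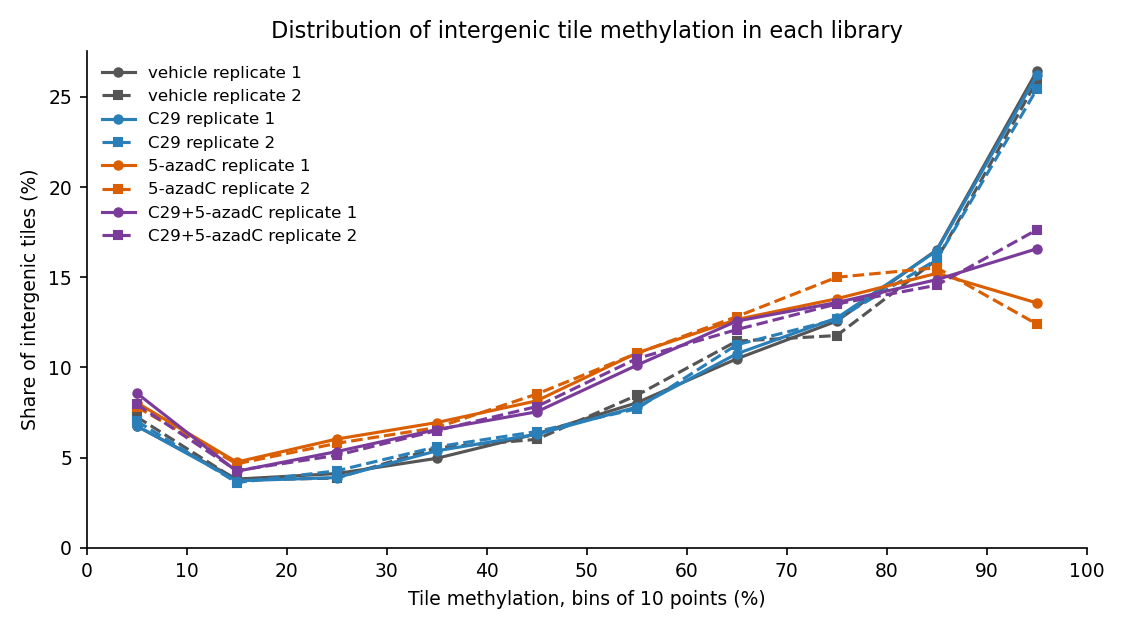
Share of intergenic tiles (%, vertical axis) in each bin of 10 percentage points of tile methylation (horizontal axis), for each library (solid line and circles for replicate 1, dashed line and squares for replicate 2). The 4 libraries without 5-azadC end at 25.4% to 26.4% in the top bin, and the 4 with it at 12.4% to 17.6%.

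The same was seen at single cytosines. Of the 33673 cytosines in the intergenic tiles, the share with every read methylated was 34.1% and 37.1% with vehicle and 35.4% and 34.5% with C29. It was 25.4% and 19.6% with 5-azadC, and 29.6% and 29.5% with the combination, so all 4 libraries with 5-azadC lay below all 4 without it. The median reads per intergenic cytosine were 51 and 50 with vehicle, 50 and 47 with C29, 46 and 62 with 5-azadC, and 42 and 38 with the combination. The lowest share stood in the deepest library, and the shallowest libraries, those of the combination, were also below vehicle and C29. The part of depth in these shares was not tested. Cytosines with no methylated read were 15.3% to 17.2% of the total without 5-azadC and 16.3% to 20.04% with it, and these ranges overlapped.

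Tile by tile, 76.9% of intergenic tiles had a lower mean with 5-azadC, against 69.9% of all tiles. The median tile difference was -5.84 points (quartiles -11.8 and -0.417), against -2.64 points over all tiles. Gene body tiles and the other tiles near genes came close to the intergenic ones. Their medians were -5.16 and -5.15 points, and 75.7% and 74.5% of them were lower. Promoter tiles had a median of -0.100 points. With C29, 44.5% of intergenic tiles were lower and 54.9% higher, with a median of 0.780 points, against a median of 0 over all tiles. In 499 intergenic tiles (6.92%) all 4 libraries with 5-azadC lay below all 4 without it, against 6.45% of all tiles, and in 20 (0.277%) all 4 lay above, against 0.338% of all tiles. The intergenic shares were thus near those of all tiles in both directions. Over gene body tiles the shares were 8.49% lower and 0.196% higher. For C29, 64 intergenic tiles (0.887%) were lower without overlap, against 0.877% of all tiles, and 95 (1.32%) were higher, against 0.982%. Where a tile's percent was taken as the mean over its cytosines in place of its summed reads, 478 intergenic tiles were lower with 5-azadC without overlap, and 336 of them were among the 499. Neither count is set beside one over all tiles.

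**Figure D3:**
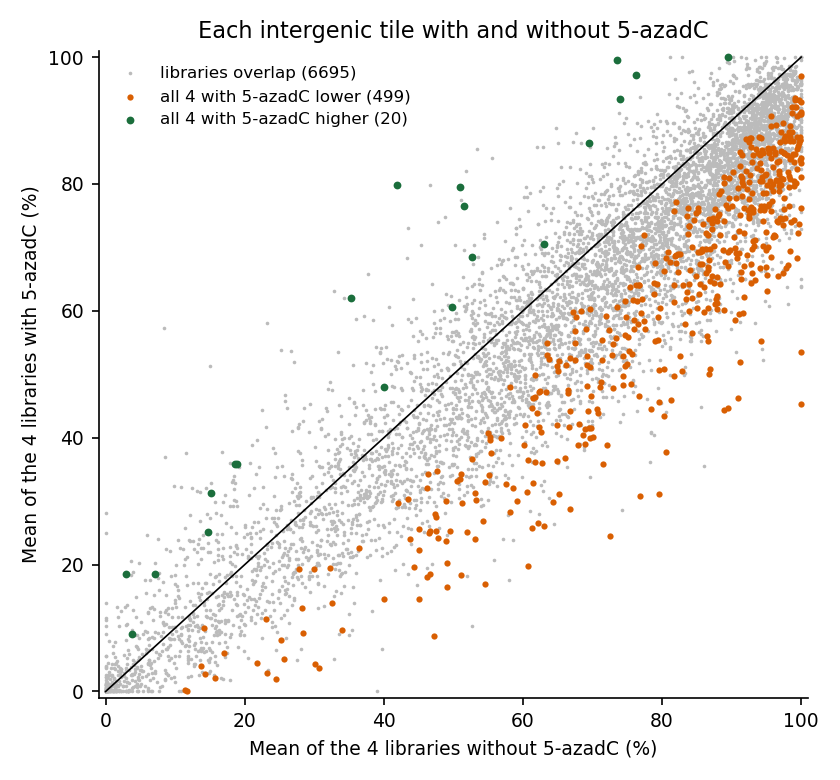
Mean methylation of each of the 7214 intergenic tiles in the 4 libraries with 5-azadC (%, vertical axis) against the 4 without (%, horizontal axis), with the line of equality. Orange points are the 499 tiles with all 4 libraries with 5-azadC below the others, green points the 20 with all 4 above, and most grey points also lie under the line.

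The spread between replicates was wide for single tiles. The median absolute difference between the replicates of a group was 8.70 points for vehicle and 8.91 for C29 alone. It was 9.93 for 5-azadC alone and 10.7 for both drugs. Counting error alone would give 2.42 to 2.95 if every count at a cytosine were separate, and more where counts share a read. Tiles that differed by 25 points or more between the replicates were 11.9%, 13.7%, 15.8% and 18.1% of the intergenic tiles in the same order. Outside the intergenic tiles the medians were 3.85 to 5.34 points. Across the 7214 tiles, Pearson's r between replicates was 0.840, 0.821, 0.776 and 0.766, and r between libraries of different groups was 0.758 to 0.838, a description over tiles that share libraries. The strands of 1 CpG also differed, by a median of 14.03 points over the 4017 intergenic CpGs with both strands measured. Single-tile values therefore carry an error of several points or more, while the mean over the 7214 intergenic tiles varied by less than 1 point between replicates.

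With edgeR's quasi-likelihood test on methylated and unmethylated counts over the 8 libraries, 0 intergenic tiles passed a Benjamini-Hochberg adjusted p below 0.05 for 5-azadC, for C29 or for the interaction of the drugs, and 0 of all 52130 tiles did. By limma on log2 ratios the counts were also 0, with a smallest adjusted p of 0.0598 among intergenic tiles for 5-azadC, beside 0.686 by edgeR. At an unadjusted edgeR p under 0.05, 384 intergenic tiles (5.32%) were lower with 5-azadC and 20 (0.277%) were higher, against 6.4% and 0.735% of all tiles. For C29 the counts were 60 lower (0.832%) and 85 higher (1.18%), against 1.38% and 1.53%. For the interaction they were 70 (0.970%) and 123 (1.71%), against 1.37% and 1.78%. By limma 758 intergenic tiles (10.5%) had an unadjusted p under 0.05 for 5-azadC, 340 (4.71%) for C29 and 384 (5.32%) for the interaction, against 11.5%, 4.86% and 5.71% of all tiles. The share of intergenic tiles at this level was below that of all tiles in each of these edgeR and limma comparisons.

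Each treatment was also set against the vehicle libraries with a logistic likelihood-ratio test of the pooled reads, with calls at q below 0.01 (Benjamini-Hochberg) where methylation differed by 25 points or more. This test covers counting error only, and the 3 comparisons share the vehicle libraries. With C29, 362 intergenic tiles (5.02%) were called, 178 lower and 184 higher, against 3.31% of all tiles (1.94% lower and 1.37% higher). With 5-azadC, 609 (8.44%) were called, 544 lower and 65 higher, against 6.27% of all tiles (5.67% lower and 0.602% higher). With the combination, 567 (7.86%) were called, 475 lower and 92 higher, against 6.02% of all tiles (5.18% lower and 0.838% higher). Calls were thus mostly losses where 5-azadC was given and evenly divided with C29 alone. In 82.3%, 87.5% and 84.5% of the called intergenic tiles the treated libraries both lay beyond the vehicle libraries in the direction of the call. Over all called tiles the shares were close to these, at 80.8%, 86.7% and 82.9%. With methylKit's overdispersion-corrected F test, 0 tiles were called in each comparison. By it 297, 448 and 410 intergenic tiles (4.12%, 6.21% and 5.68%) had an unadjusted p under 0.05, against 4.24%, 6.83% and 5.83% of all tiles. The limma and edgeR fits were not run for single treatments against vehicle. Among tiles with at least 5 cytosines, 2.03%, 4.14% and 3.73% of intergenic tiles were called, against 1.43%, 2.50% and 2.43% of all tiles. Leaving out any 1 of the 4 libraries raised the share called to 8.23% to 9.69% for C29, to 12.4% to 14.9% for 5-azadC and to 11.6% to 13.8% for the combination, where 5.38% to 6.87%, 8.65% to 11.1% and 8.36% to 10.2% of all tiles were called.

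The loss with 5-azadC was smallest in points in tiles of low methylation. The classes used the mean over all 8 libraries, treated ones included, so a tile that fell far could leave the top class. The 708 intergenic tiles under 20% fell from a mean of 9.36% ± 0.488 (SD, n = 4) to 7.88% ± 0.455 (n = 4), a difference of -1.48 points. The 4081 tiles at 20% to 80% differed by -7.19 points, and the 2425 tiles over 80% by -6.28 points. As a share of the level without 5-azadC the loss was largest in the lowest class, at -15.8%, -11.8% and -6.85% in the same order. In each class the libraries did not overlap. The same classes of tiles outside the intergenic set differed by -0.511, -7.22 and -7.79 points. The intergenic set had 9.81% of its tiles in the lowest class, against 40.6% of the other tiles, and its middle class moved as the others did. In the highest class 8.54% of intergenic tiles were lower without overlap, against 13.3% of the other tiles.

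Distance from genes made little difference. The 3359 tiles at 10 to 25 kb differed by -6.35 points, the 3159 at 25 to 100 kb by -6.39 points and the 696 at more than 100 kb by -5.93 points. The level without 5-azadC rose over these classes, from 64.8% to 67.2% and 69.4%.

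Repeat content and CpG density went with the size of the loss. The 3179 intergenic tiles with under 20% soft-masked bases differed by -6.48 points from a level of 58.6%, the 2966 tiles with 20% to 80% by -6.58 points from 70.0%, and the 1069 tiles with over 80% by -5.17 points from 78.8%. As a share of the level without 5-azadC these losses were -11.1%, -9.39% and -6.56%, so the most repeat-rich tiles lost least. Outside the intergenic set, 788 tiles were masked over 80%, and they differed by -5.03 points from 78.7%, close to the intergenic ones. Tiles with 3 to 5 measured cytosines differed by -6.69 points (5653 tiles), those with 6 to 10 by -5.25 (1348) and those with more than 10 by -3.52 (213). The 126 island-like tiles differed by -1.68 points, from 36.1% ± 1.42 to 34.4% ± 0.633, and their libraries overlapped. Read in turn, the level without the drug, the masked share and the number of cytosines change together across these classes, and their separate parts were not tested.

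The ERR response element, taken as TNAAGGTCA on either strand, was found in 400 intergenic tiles (5.54%) and in 5.02% of all tiles. ERRα, the target of C29, is known to bind this sequence. With C29 the 400 tiles differed by 0.804 points and the 6814 without the element by 0.839 points, and the libraries overlapped in both sets. With 5-azadC they differed by -6.94 and -6.29 points, with no overlap in either. A match to these letters is a description of the tile and not a binding site.

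**Figure D4:**
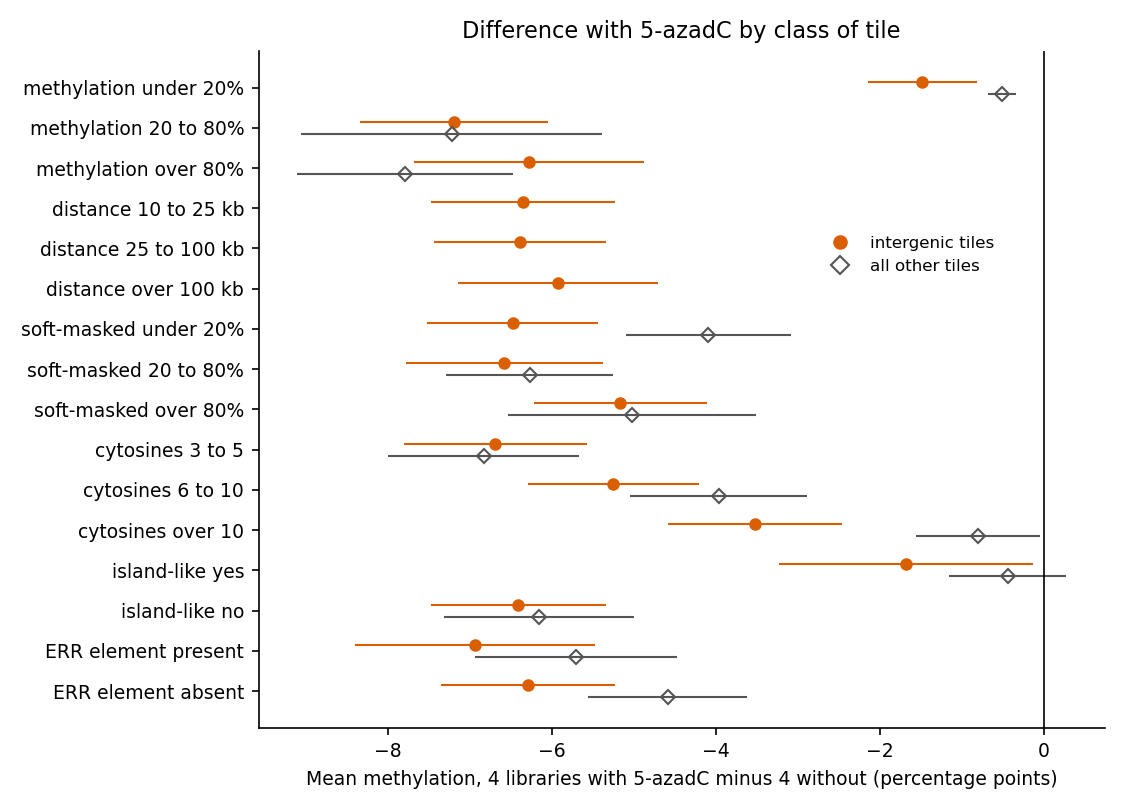
Mean methylation of the 4 libraries with 5-azadC minus the 4 without (percentage points, horizontal axis) by class of tile (vertical axis). Filled circles are intergenic tiles and open diamonds all other tiles; error bars are the SDs of the 4 and 4 libraries combined as the root of their summed squares. Tiles under 20% methylation, with more than 10 cytosines or island-like differ least, at -1.48, -3.52 and -1.68 points in intergenic tiles.

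Neighbouring tiles were alike in level, while their differences with 5-azadC showed little correlation. Over 347 pairs of adjoining intergenic tiles Pearson's r was 0.682 for the mean methylation and 0.0446 for the difference with 5-azadC. Over 5252 pairs at more than 10 and up to 100 kb the values were 0.152 and 0.0376. These are descriptions across pairs that share libraries. Replicates of a group differed by a median of 8.70 to 10.7 points per intergenic tile, and spread of that size lowers r for a difference. The low r therefore cannot decide whether neighbours changed together.

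Among the 3671 intergenic tiles with at least 100 reads in every library that could be named, the Gm22773 tile (chr2:172732001-172733000, 131572 bp from that miRNA gene) fell most with 5-azadC. It read 82.9% and 95.6% with vehicle, 91.7% and 87.8% with C29, 72.5% and 40.4% with 5-azadC, and 26.5% and 39.1% with the combination, on 5 cytosines and 135 to 230 reads. Every library with 5-azadC lay below every other, but they ranged widely. The means were 44.6% ± 19.6 (SD, n = 4) and 89.5% ± 5.42 (n = 4), a difference of -44.9 points (edgeR with Benjamini-Hochberg adjustment, adjusted p = 0.686). Its cytosines, 3 on the plus strand and 2 on the minus strand in the sequence shown above, fell by 25.8 to 64.7 points each. Within a library they often read alike, and the 3 plus-strand cytosines stood at 46.3% each in 5-azadC replicate 2.

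The next 7 decreases lay between -38.0 and -32.0 points. The Sh3pxd2a tile (chr19:47476001-47477000), 11853 bp from the gene of an invadopodium scaffold protein, read 95.9% and 78.8% with vehicle, 85.7% and 86.8% with C29, 36.4% and 68.7% with 5-azadC, and 35.1% and 59.8% with the combination, a difference of -36.8 points (edgeR, adjusted p = 0.686). The Nfkbia tile (chr12:55460001-55461000), 29048 bp from the gene of an inhibitor of NF-κB, read 70.8% and 75.5% with vehicle, 56.7% and 54.1% with C29, 52.4% and 12.7% with 5-azadC, and 20.4% and 33.8% with the combination. Its libraries with C29 alone stood between vehicle and 5-azadC. The Gm5653 tile (chr12:64054001-64055000) differed by -32.6 points, with the 4 libraries with 5-azadC at 13.1% to 18.2% and the others at 27.9% to 66.7%. The Gm36669 tile (chr6:16743001-16744000) had the most cytosines of these, 8, and read 83.0% to 100% without 5-azadC and 48.7% to 65.7% with it.

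Some of these differences rested on which cytosines gave the reads. The Gm25614 tile (chr14:58598001-58599000) read 71.7% and 58.2% with vehicle, 81.6% and 55.6% with C29, 13.3% and 39.9% with 5-azadC, and 21.2% and 40.8% with the combination, a difference of -38.0 points from summed reads (edgeR, adjusted p = 0.686). As a mean over its 4 cytosines the difference was -17.4 points. In 5-azadC replicate 1 these cytosines read 0%, 0%, 100% and 100%, beside the 13.3% of the whole tile. The Gm49140 tile (chr15:18615001-18616000) differed by -32.0 points from summed reads and by -20.4 points as a mean over cytosines. The Cmc2 tile (chr8:116843001-116844000), near the gene of a cytochrome c oxidase assembly factor, differed by -35.6 and -26.25 points. By the mean over cytosines, 4 of the 8 named decreases kept libraries without overlap, those near Gm22773, Gm25614, Sh3pxd2a and Gm36669.

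The 4 largest increases with 5-azadC were smaller, at 15.7 to 17.2 points, and none had an unadjusted edgeR p under 0.05. The Gm43103 tile (chr5:101525001-101526000) read 9.25% and 18.5% with vehicle, 19.002% and 27.7% with C29, 33.1% and 33.0% with 5-azadC, and 43.9% and 33.2% with the combination, a difference of 17.2 points (edgeR, adjusted p = 0.703). As a mean over its 6 cytosines it differed by 2.62 points. The Lhx1os tile (chr11:84578001-84579000) read 53.6% to 75.9% without 5-azadC and 78.3% to 93.7% with it, a difference of 17.0 points, or 12.7 as a mean over cytosines. For the Gm11500 tile (chr11:92446001-92447000) the differences were 16.2 and 9.23 points, and for the Gm37223 tile (chr1:184235001-184236000) 15.7 and 14.8 points. None of the 4 kept libraries without overlap by the mean over cytosines.

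**Figure D5:**
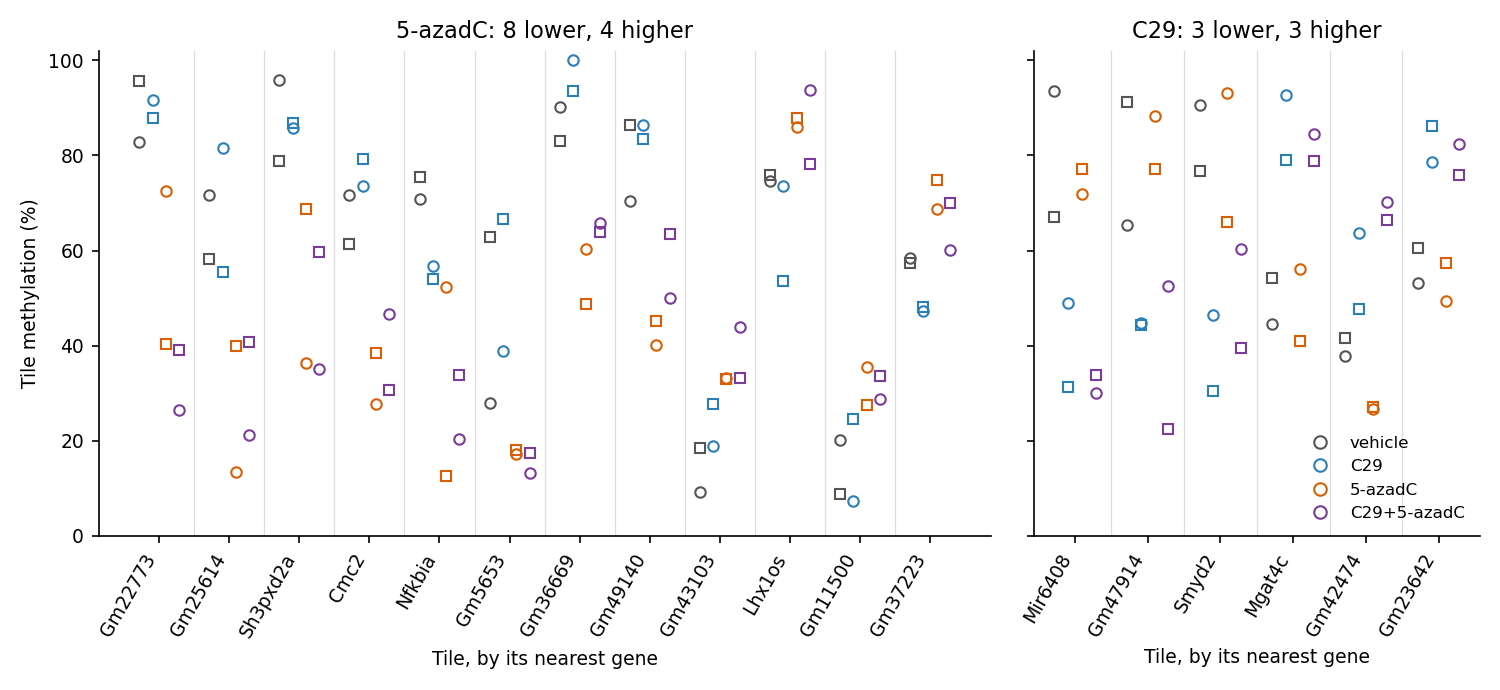
Methylation (%, vertical axis) of the 12 named tiles of the 5-azadC comparison (left) and the 6 of the C29 comparison (right) in each library, circles for replicate 1 and squares for replicate 2, coloured by group. The rule chose tiles without overlap, so the separation is given by the choice. Replicates of a group can lie far apart, as in the Nfkbia tile at 52.4% and 12.7% with 5-azadC.

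With C29, the Mir6408 tile (chr10:60889001-60890000) fell most. It read 93.6% and 67.1% with vehicle and 71.9% and 77.0% with 5-azadC, against 48.9% and 31.2% with C29 and 30.1% and 33.8% with the combination, a difference of -41.4 points (edgeR, adjusted p = 1). This tile held 2 matches to the ERR response element, and none of the other named tiles held one. The Gm47914 tile (chr13:116706001-116707000) differed by -39.5 points, with 22.5% to 52.6% with C29 and 65.4% to 91.2% without. The Smyd2 tile (chr1:189977001-189978000), 55175 bp from the gene of a lysine methyltransferase, differed by -37.5 points, with 30.4% to 60.3% with C29 and 66.1% to 93.1% without.

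The Mgat4c tile (chr10:101631001-101632000), 50054 bp from the gene of a glycosyltransferase family member, rose most with C29. It read 44.6% and 54.2% with vehicle and 56.0% and 41.1% with 5-azadC, against 92.8% and 79.0% with C29 and 84.5% and 78.9% with the combination, a difference of 34.8 points (edgeR, adjusted p = 1). The Gm42474 tile (chr6:26658001-26659000) differed by 28.6 points and the Gm23642 tile (chr17:48679001-48680000) by 25.6 points. All 6 tiles named for C29 kept libraries without overlap by the mean over cytosines, with differences of -46.6 to 34.8 points. These tiles were picked for not overlapping, out of 35 lower and 51 higher tiles for C29 and 312 lower and 10 higher for 5-azadC among the 3671. The counts give only the size of the pool picked from, since no share over all tiles with that read minimum is given here.

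Against vehicle alone, the tiles named for C29 by pooled reads were those near AC124316.1, Gm45139 and Smyd2 (lower) and near Gm42933 and Gtf3a (higher). The AC124316.1 tile (chr17:87874001-87875000) read 58.7% and 51.8% with vehicle and 7.92% and 5.21% with C29, but 34.4% and 37.8% with the combination. The Gm45139 tile (chr7:75983001-75984000) read 83.3% and 87.8% with vehicle and 56.2% and 6.19% with C29, a difference of means of -54.4 points that was -29.4 without C29 replicate 2. The Gm42933 tile (chr5:102206001-102207000) read 35.2% and 33.6% with vehicle and 67.0% and 98.1% with C29, with 63.3% and 23.8% in the combination.

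For 5-azadC the named tiles were those near Fam20b, Tfap2c and Gm12479 (lower) and Gm22194 and Gm37178 (higher). The Fam20b tile (chr1:156748001-156749000), near the gene of a kinase of proteoglycan synthesis, read 87.9% and 100% with vehicle and 26.7% and 62.9% with 5-azadC, but 76.7% and 100% with the combination. Its difference of means of -49.2 points was -31.1 without 5-azadC replicate 1. The Tfap2c tile (chr2:172677001-172678000), 119205 bp from the gene of the transcription factor AP-2γ, read 82.5% and 78.9% with vehicle and 60.3% and 6.67% with 5-azadC. Its difference of -47.2 points was -74.05 without 5-azadC replicate 1 and -20.4 without replicate 2. The Gm12479 tile (chr4:54877001-54878000) read 78.6% and 60.1% with vehicle and 32.5% and 13.2% with 5-azadC. The Gm37178 tile (chr1:189041001-189042000) rose from 37.6% and 14.6% with vehicle to 72.9% and 49.5%, while the combination stood at 36.1% and 28.5%.

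For the combination the named tiles were those near Gm22773, Edn2 and Nfkbia (lower) and Gm48931 and Man1a (higher). The Edn2 tile (chr4:120198001-120199000), 30732 bp from the gene of the vasoactive peptide endothelin 2, read 58.0% and 99.3% with vehicle and 30.2% and 24.8% with the combination. Its difference of means of -51.1 points was -30.5 without vehicle replicate 2. The Gm48931 tile (chr14:75828001-75829000) had no methylated read in either vehicle library and read 18.7% and 15.7% with C29, 21.8% and 2.90% with 5-azadC, and at least 48.1% in both libraries of the combination. The 2 vehicle libraries had 236 and 108 reads there, summed over its 4 cytosines. They would allow levels of up to 1.27% and 2.78% (3 reads) only if each count were separate, and more where a read covers several cytosines. The Man1a tile (chr10:53889001-53890000), 15609 bp from the gene of a Golgi mannosidase, read 36.5% and 36.7% with vehicle and 68.4% and 84.4% with the combination.

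The tiles with most cytosines were taken from each end of the range by their mean over the 8 libraries, treated ones included, so their levels are a description. The Gm11809 tile (chr4:8647001-8648000, 57 cytosines, 99 CpGs in its sequence, 1845 to 3821 reads) read 0% to 0.825% in the 8 libraries. Its 2 values of 0% rest on 2989 and 1845 counts summed over 57 cytosines. They would allow up to 0.100% and 0.163% only if each count were separate, and more where a read covers several cytosines. A tile 12238 bp from Cbx8 (chr11:119053001-119054000, 54 cytosines), a gene of the Polycomb repressive complex, read 0% to 1.10%. Another tile, 15338 bp from that gene (chr11:119056001-119057000, 39 cytosines), read 0% to 2.88%. On the same terms, the 0% values of these tiles would allow up to 0.122% and 0.186%. The Eya2 tile (chr2:165563001-165564000, 39 cytosines), near the gene of a transcriptional coactivator with phosphatase activity, read 3.24% to 7.17% without 5-azadC and 1.07% to 5.57% with it. The sequences of these 4 tiles held 58 to 99 CpGs, against a median of 52 in promoter tiles, though each lay more than 10 kb from an annotated gene.

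At the methylated end, the Cabcoco1 tile (chr10:68411001-68412000, 21 cytosines, 1014 to 1995 reads) read 91.5% to 94.8% without 5-azadC and 89.5% to 92.0% with it. The Naaladl2 tile (chr3:23687001-23688000, 18 cytosines) read 88.0% to 98.4% and 91.8% to 94.2%, so its libraries overlapped. The Rbms3 tile (chr9:117667001-117668000, 18 cytosines) read 90.3% to 94.1% without 5-azadC, and with it 91.4% to 94.1% apart from 74.4% in replicate 1 of the combination. The Gm43160 tile (chr3:21160001-21161000, 14 cytosines) read 97.4% to 99.4% and 91.3% to 98.2%. The mean differences with 5-azadC at these 4 tiles were -1.51 to -4.33 points. The -4.33 points of the Rbms3 tile rested on the 74.4% library, since without it the 3 other libraries with 5-azadC averaged 92.8% against 92.5%, a difference of 0.257 points. The 46 intergenic tiles that carried the 28-base run common to the Cabcoco1 and Naaladl2 tiles had a mean of 84.2% without 5-azadC and 79.4% with it.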

How the data were processed

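The deposited tables list CpG cytosines strand by strand, with the fraction of reads methylated and a read count, both without normalization, made by the authors after alignment to mm10/GRCm38 with Bismark 0.20.0; the submitters' processing notes also name FastQC 0.11.8, Trim Galore 0.4.1 and methylKit 1.7.0. Trimming, filter and tile settings were not given in the sources used here. Fraction times count gave whole methylated reads, within 0.01 reads, for at least 99.9997% of listed cytosines, and the rest were rounded.

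Libraries were grouped by their titles. Cytosines needed at least 10 reads in all 8 libraries; those above 200 reads in all 8 were left out, and strands were kept apart. Distances were measured to GENCODE M21 genes. Reads were summed over non-overlapping 1000 bp tiles with at least 3 cytosines, and a tile's percent methylation was methylated over all reads. Where a tile straddled the 10 kb limit (9 tiles), its intergenic cytosines formed a tile of their own. A promoter was the 1000 bp upstream of a start site. Sequence was read from the soft-masked GRCm38 assembly, in which every measured position of the chromosomes used was checked to be a CpG. Library means over tiles are descriptions with SD and no p-value; with 2 libraries against 2 the smallest two-sided exact permutation p would be 0.33.

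Each treatment was compared with vehicle by the logistic likelihood-ratio test of methylKit, written anew (Python 3.11.15, NumPy 2.4.6, SciPy 1.17.1, pandas 2.3.3), called at q below 0.01 and at least 25 points. Drug factors over 8 libraries used edgeR 4.0.16 (quasi-likelihood F test, both drugs as terms) and limma 3.58.1 on log2((methylated + 1)/(unmethylated + 1)) in R 4.3.3, at q below 0.05. Adjustment was over all 52130 tiles. On simulated data only the 5-azadC comparison was run, by edgeR, by the logistic test and by the count of tiles without overlap. The F test and limma were not run on them, and no outcome is given here. Named tiles had at least 100 reads in every library and were, among tiles without overlap of the libraries, the 8 largest decreases and 4 largest increases for 5-azadC and the 3 and 3 for C29, then the 3 largest decreases and 2 largest increases called in each comparison with vehicle with both libraries on the same side, and the 4 tiles with most cytosines under 10% and over 90%. Tiles on chromosome 18 were not named. The members, classes and rules were chosen with earlier results of these data known. Figures were drawn with matplotlib 3.10.9. Nothing in the labels gives which mice entered which pool. The p-values of edgeR, limma and the F test therefore measure only the spread between these libraries, and those of the logistic test only counting error.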

Additional observations from a re-analysis of the deposited data

Results flagged for a closer look

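In 5 of the named tiles a drug's difference went one way without the other drug and the opposite way with it, both libraries of each group lying on the same side. At the Gm42474 tile 5-azadC differed by -12.8 points from vehicle and by 12.5 points when given with C29 against C29 alone. At the Gtf3a tile (chr5:146907001-146908000) the values were 12.6 and -41.3 points, with 35.2% and 17.1% in the vehicle libraries, 70.9% and 70.0% with C29, 35.8% and 41.7% with 5-azadC, and 5.23% and 53.0% with the combination. At the Tfap2c tile they were -47.2 and 19.3 points for 5-azadC, and -27.5 and 39.0 points for C29 without and with 5-azadC. At the Gm22194 tile (chr10:11903001-11904000) they were 37.7 and -24.2 points for 5-azadC and 31.5 and -30.4 points for C29, with 52.0% and 53.3% with vehicle, 90.05% and 78.2% with C29, 100% and 80.7% with 5-azadC, and 52.3% and 67.6% with the combination. At the Eya2 tile the values for C29 were -2.69 and 2.49 points. None of these passed edgeR's interaction test over all tiles (unadjusted p of 0.0627 to 0.223, adjusted p of 1 at each), and several were named for a large difference in 1 comparison. Over all intergenic tiles, 323 (4.48%) had such opposite differences for 5-azadC, against 3.54% of all tiles, and 407 (5.64%) for C29, against 4.55%.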

How the results depend on the processing

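The lower mean with 5-azadC kept its direction in every alternative tried, between -6.51 and -6.14 points when a library was left out; it was -5.42 points over tiles with at least 5 cytosines and -5.58 with reads summed over all tiles. For 5-azadC and the combination against vehicle, tiles with at least 5 cytosines gave -6.20 and -4.83 points. With 1 library left out, C29 against vehicle ran from -0.358 to 0.366 points and the 4 C29 libraries against the others from 0.656 to 1.02. Summed reads gave 0.426 points for the 4 C29 libraries against the others and -0.813 for C29 against vehicle. The shares of intergenic tiles called against vehicle with C29, 5-azadC and the combination moved to 2.03%, 4.14% and 3.73% with at least 5 cytosines, to 0% each with the overdispersion-corrected F test, and to 30.8%, 43.2% and 39.4% with a minimum of 10 points. With 1 library left out they were 8.23% to 9.69%, 12.4% to 14.9% and 11.6% to 13.8%. Tiles without overlap rose to between 10.5% and 12.1% for 5-azadC and between 4.23% and 5.25% for C29 with 1 library left out, since fewer libraries must separate; as the mean over cytosines, an alternative chosen after seeing the data, the shares were 6.93% and 2.45%. Samples with the same replicate number did not deviate together (r of -0.00656 to 0.0136 between groups), so the number pairs nothing; with a replicate block the logistic test called 5.02%, 8.41% and 7.86% of the tiles, and edgeR with the block called 0 tiles for 5-azadC, C29 and the interaction, with 398, 146 and 185 at an unadjusted p under 0.05. Under the alternative read, tile and distance settings edgeR called 0 intergenic tiles, and limma, run on the main tiles only, also called 0. Among these alternatives, called shares over all tiles are given in the Results only for at least 5 cytosines, for the F test and for 1 library left out against vehicle. The other alternative shares and counts describe intergenic tiles only and are not read against all tiles. For the means and shares above, 161 alternative values stayed within the replicate spread or within 1.5 times the share, and 37 did not. Among alternative values of the named tiles, 453 moved by less than the spread between replicates and 20 by more, and none changed direction where a direction had been called. Leaving out 1 library could not turn that direction. Those tiles were chosen for libraries without overlap, or with both treated libraries beyond both vehicle libraries. RRBS reads only fragments near CCGG sites, a median of 4 cytosines per tile, and most of a tile's bases were not measured.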
